A study of Homo sapiens with 9 samples.

Results

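The oncofetal genes LIN28A, LIN28B, IGF2BP1, IGF2BP2, IGF2BP3, HMGA1, HMGA2 and ARID3A were examined in RNA-seq libraries of HAL-01 cells. They were chosen by gene symbol, whatever their level, as 8 of the 62700 genes in the deposited tables, and transcripts were summed per gene. HAL-01 is an established line of B cell acute lymphoblastic leukemia (B-ALL) in which a translocation produces the fusion transcription factor TCF3::HLF. All cells stably expressed Cas9 and GFP, the controls included. The control group, SCR1, carried a scrambled guide RNA, and the groups sgRNA_96 and sgRNA_97 each carried 1 guide against a MEF2C enhancer at its HLF motif, which the labels call MEF2C-enhancer KO. All libraries were made on day 13, with 3 replicates per group. The replicates were numbered 1, 3 and 4, and the sources used here do not say whether they were separate transductions, so p-values measure the spread between these libraries. The cells were measured in bulk in 1 cell line, and fewer expressing cells cannot be told apart from less RNA per cell. The share of edited cells was not analysed here.

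The term oncofetal is used for genes that are active in fetal tissues, are largely silenced after birth, and return in many tumors. It serves here as the name of the group and need not hold for each member, and no fetal or normal adult tissue was measured. LIN28A and LIN28B are RNA-binding proteins that hold back the maturation of let-7, a family of microRNAs that in turn represses mRNAs carrying matches to its seed, the stretch of bases that pairs with the target. IGF2BP1, IGF2BP2 and IGF2BP3 bind mRNAs and prolong their life or steer their translation, and HMGA1 and HMGA2 are small architectural chromatin proteins that bind AT-rich DNA. ARID3A is a DNA-binding protein of B cells and blood progenitors. In the blood system LIN28B, let-7 and targets such as HMGA2, IGF2BP mRNAs and ARID3A are known for setting fetal against adult programs of stem cells and lymphocytes.

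The sequence that ties these genes together is the let-7 seed, shown here with its matches in the canonical transcript of each gene. The levels reported below are sums over all transcripts of a gene, and the 3′ UTRs of the other transcripts were not searched. RefSeq (GRCh38) lists 9 distinct mature let-7 and miR-98 sequences from 12 loci, and all 9 have the same bases 2 to 8, in capitals below, in 3 examples that differ outside the seed.
let-7a-5p: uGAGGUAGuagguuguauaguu
let-7d-5p: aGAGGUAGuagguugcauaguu
miR-98-5p: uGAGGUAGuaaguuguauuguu

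The 3′ UTRs of the canonical GENCODE 44 transcripts were searched on the transcript strand for CTACCTC, the reverse complement of that seed. Every match followed by A, written CTACCTCA and called an 8mer here, is also a match of the shorter word, and the others are called 7mers. At least 1 match was present in each of the 8 genes, against 9.71% of the 3′ UTRs of 19229 genes, whose median length was 1064 bases. HMGA2 and LIN28B each had 4 matches, as did IGF2BP1, ARID3A had 2, and LIN28A, IGF2BP2, IGF2BP3 and HMGA1 each had 1. Only CTACCTC was searched, so seed matches of any other form are not in these numbers. Long 3′ UTRs hold more matches, so each gene was set against 3′ UTRs of 80 to 125% of its length. Among those, at least 4 matches were found in 0.0832% of 2405 genes for HMGA2, in 0.184% of 1628 for LIN28B and in 0.508% of 788 for IGF2BP1. A single match was less unusual. Among genes with a 3′ UTR of like length, 16.7% had at least 1 for LIN28A, 13.1% for IGF2BP2, 12.1% for IGF2BP3 and 8.66% for HMGA1. Most of these genes are already known as let-7 targets, so the matches describe them and carry no test. The first match of 6 of the genes is printed 5′ to 3′ on the transcript strand with the match in capitals, to show the 8mers beside the 7mer of HMGA1.
LIN28B (chr6:105078812-105078834, plus strand): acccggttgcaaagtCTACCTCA
IGF2BP2 (chr3:185644220-185644242, minus strand): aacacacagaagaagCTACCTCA
IGF2BP3 (chr7:23311795-23311817, minus strand): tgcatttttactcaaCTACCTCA
HMGA1 (chr6:34245829-34245851, plus strand): tcctctgttcacaaaCTACCTCt
HMGA2 (chr12:65963298-65963320, plus strand): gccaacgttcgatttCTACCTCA
ARID3A (chr19:974511-974533, plus strand): gctgcctatctctgtCTACCTCA

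The first match of HMGA2 begins 21 bases into its 3′ UTR and that of LIN28B 44 bases into it, whereas ARID3A has its first match only at base 2461. A match of letters says nothing of whether let-7 was present or bound in these cells.

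**Figure D1:**
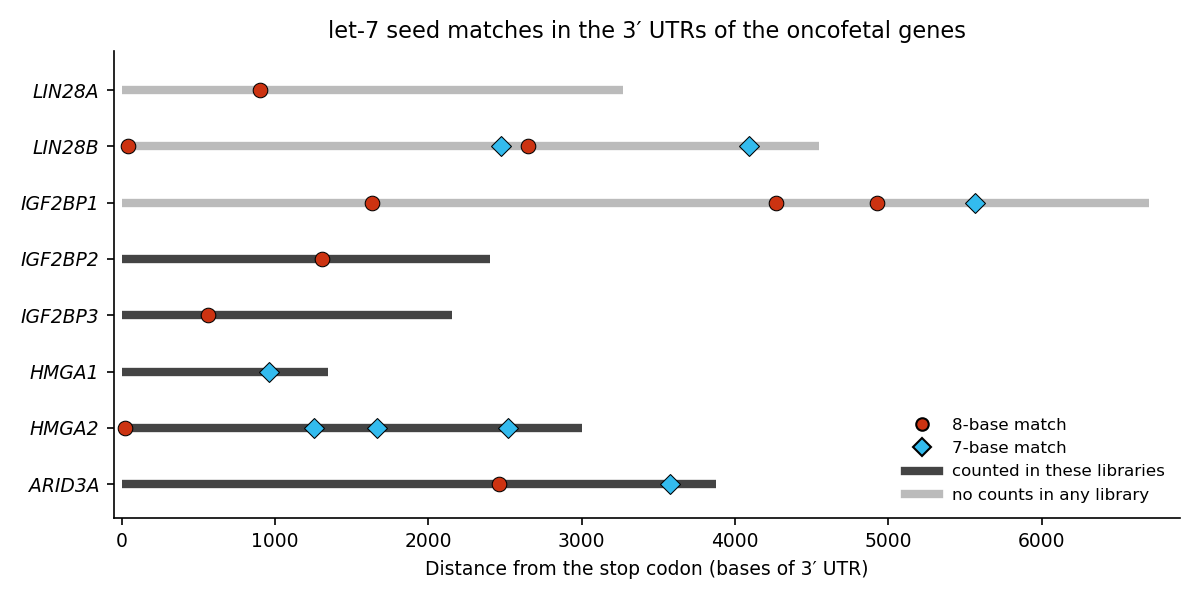
Positions of let-7 seed matches along the 3′ UTR of each gene, drawn to scale in bases from the stop codon (x axis), with 8-base matches as circles and 7-base matches as diamonds. LIN28B, IGF2BP1 and HMGA2 have 4 matches each, and the light bars mark the 3 genes that had no counts in any of the 9 libraries.

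The libraries held between 15212462 and 29777361 estimated counts, with SCR1 replicate 1 the deepest, and 14436 genes passed the filter on low counts. All 10 B lineage markers were present, with a summed level of 4797 to 4979 CPM (counts scaled to library size) in SCR1 and 5276 to 5553 CPM in the KO libraries. In KO against SCR1, 2 of the 10 were called, both higher, where 20.7% of all genes tested were called. These were RAG1 and DNTT, which cut and extend antigen receptor genes, with log2 fold changes of 0.87 and 0.255 (edgeR adjusted p 1.09e-07 and 0.000328). The other 8 did not pass the test, with log2 fold changes from -0.18 for IGLL1 (adjusted p 0.0543) to 0.15 for VPREB1 (adjusted p 0.0730). Of 5 myeloid markers, with ELANE at 0, the summed level was 18.7 to 21.5 CPM in SCR1 and 19.4 to 24.0 CPM in KO. Of the 2 myeloid markers tested, MPO rose from 2.75 to 5.82 CPM (edgeR adjusted p 0.000894), and CSF1R, which made up most of the sum, stood at 17.15 CPM in SCR1 and 14.85 CPM in KO (log2 fold change -0.21, adjusted p 0.124). CD3D, CD3E, CD3G and CD5 had no counts, CD2 had at most 1 count, and all 5 erythroid markers were at 0. Of 5 stromal markers, COL1A2, COL3A1 and LUM were at 0, and the sum, almost all PDGFRB, was 19.6 to 24.1 CPM in SCR1 and 17.4 to 20.9 CPM in KO. Whether the marker differences had a part in the results below was not tested. MEF2C, whose enhancer was targeted, stood at 560, 559 and 536 CPM in SCR1 replicates 1, 3 and 4, at 495, 498 and 510 CPM with sgRNA_96 and at 553, 505 and 495 CPM with sgRNA_97. Its log2 fold change was -0.12 (SE 0.042, edgeR adjusted p 0.0620), above the threshold of 0.05. The estimate was below 0 in all 16 alternative analyses, and MEF2C was called in 2 of them. The study reported MEF2C as lower in its own RNA-seq analysis, and also by RT-qPCR and Western blot.

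The first question was which oncofetal genes this leukemia transcribes at all. LIN28A, LIN28B and IGF2BP1 had 0 counts in each of the 9 libraries, with SCR1 as with either guide. A count of 0 allows up to 3 counts, which is 0.101 to 0.197 CPM in a single library and 0.0172 CPM over all 174239875 counts, and this limit covers counting error only. LIN28A lies on chromosome 1 (26410817 to 26429728, plus strand, hg38), LIN28B on chromosome 6 (104936616 to 105083332, plus strand) and IGF2BP1 on chromosome 17 (48997385 to 49056145, plus strand). The antisense gene LIN28B-AS1 was also at 0. So were the pseudogenes LIN28AP1 and LIN28AP2, and no counts were assigned to these copies in place of LIN28A. A search by gene symbol gave no pseudogene of LIN28B or IGF2BP1, so this check covers LIN28A only. Neither LIN28 mRNA was detected at this depth, nor was that of IGF2BP1.

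The other 5 genes had at least 28 counts in every library, and they differed widely in level. On the TPM scale, which corrects for transcript length and so allows genes to be compared, HMGA1 was far ahead at 524 ± 65.4 TPM (SD, n = 9). This level ranked 207 among all genes and exceeded 98.5% of the 13387 genes with a mean of at least 1 TPM. IGF2BP3 followed at 33.6 ± 2.94 TPM, above 71.4% of these genes. ARID3A stood at 8.47 ± 1.53 TPM, HMGA2 at 2.54 ± 0.504 TPM and IGF2BP2 at 1.43 ± 0.602 TPM, above 35.2, 14.6 and 6.1% of these genes.

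The order was the same in nearly every library. HMGA1 exceeded IGF2BP3 by 12.0 to 21.7 times, IGF2BP3 exceeded ARID3A by 3.22 to 5.39 times, and ARID3A exceeded HMGA2 by 2.16 to 5.26 times, each in 9 of 9 libraries. HMGA2 and IGF2BP2 were the only neighbours whose order was not the same throughout, with HMGA2 higher in 8 of 9 libraries and a ratio between 0.9 and 2.93. Within the IGF2BP family, IGF2BP3 was thus the main transcript and IGF2BP1 was undetected, and within the HMGA family HMGA1 was the main transcript.

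To determine whether targeting the enhancer altered these genes, the 6 KO libraries were set against the 3 SCR1 libraries in edgeR. IGF2BP2 and IGF2BP3 were higher in the KO libraries, IGF2BP2 by 1.70-fold from a low level and IGF2BP3 by 1.12-fold, and both passed the threshold. HMGA1 was 0.858 times its control level and just missed it, and HMGA2 and ARID3A had estimates near 0. Thus 2 of 5 genes tested were called, both higher, where 20.7% of all genes tested were called in either direction and 10.1% were called higher. The median log2 fold change was 0.046 over the 5 genes and 0.0028 over all genes tested.

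**Figure D2:**
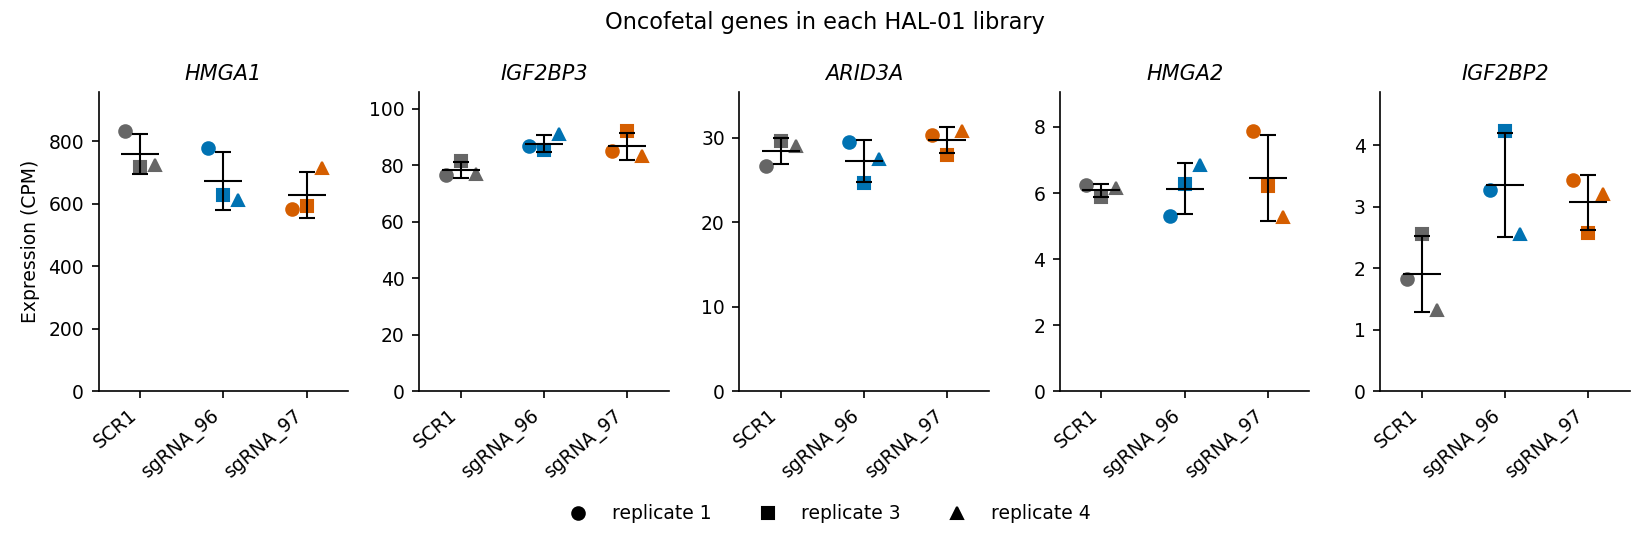
Expression in CPM (y axes, each from 0) of the 5 expressed genes in each library, by group, with the shape of a point giving the replicate and the bar and whiskers the mean ± SD of 3 libraries. All 6 KO libraries of IGF2BP3 lie above every control, and 5 of 6 do for IGF2BP2, while HMGA2 and ARID3A overlap throughout.

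IGF2BP2 (ENSG00000073792.16, chromosome 3, 185643130 to 185825042, minus strand), the IGF2BP known from metabolism and stem cells, was measured on few counts, between 28 and 87 per library. It stood at 1.83, 2.57 and 1.32 CPM in SCR1 replicates 1, 3 and 4. The level was 3.28, 4.23 and 2.55 CPM in the same order with sgRNA_96, and 3.44, 2.58 and 3.21 CPM with sgRNA_97. Only SCR1 replicate 3 reached into the KO range, just above sgRNA_96 replicate 4, and the other 5 KO libraries exceeded every control. The means were 1.91 ± 0.624 CPM (SD, n = 3) in SCR1 and 3.215 ± 0.622 CPM (SD, n = 6) in KO. The log2 fold change was 0.76 (SE 0.24, 95% confidence interval 0.25 to 1.28, edgeR adjusted p 0.0350), and 96.3% of all genes tested had a smaller absolute change. The call depended on single libraries. Without SCR1 replicate 4 the log2 fold change was 0.57 (edgeR adjusted p 0.173), and the adjusted p was also above 0.05 without SCR1 replicate 1 (0.127), sgRNA_96 replicate 3 (0.0809), sgRNA_97 replicate 1 (0.0554) or sgRNA_97 replicate 4 (0.0533). With the TPM values in limma, the adjusted p was 0.153 and 0.145 at pseudocounts of 1 and 0.1.

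IGF2BP3 (ENSG00000136231.14, chromosome 7, 23310209 to 23470491, minus strand), a stabilizer of mRNAs that is known for its presence in B-ALL, was the better measured of the pair, with 1283 to 2256 counts per library. It stood at 76.6, 81.5 and 76.8 CPM in SCR1 replicates 1, 3 and 4, at 86.8, 85.3 and 91.0 CPM with sgRNA_96 and at 84.9, 92.1 and 83.15 CPM with sgRNA_97. No KO library overlapped a control, as was the case for 20.3% of all genes tested. The means were 78.3 ± 2.76 CPM (SD, n = 3) and 87.2 ± 3.58 CPM (SD, n = 6). The log2 fold change was 0.16 (SE 0.049, 95% confidence interval 0.055 to 0.26, edgeR adjusted p 0.0305). The change was ordinary in size, and 52.7% of all genes tested had a smaller one. The adjusted p was 0.147 without SCR1 replicate 1 and 0.125 without SCR1 replicate 4, the highest of the leave-outs, and it rose just past 0.05 without sgRNA_96 replicate 4 (0.0521) or sgRNA_97 replicate 3 (0.0568). MALSU1, a mitochondrial ribosome factor that overlaps IGF2BP3 on the opposite strand, held 3513 counts over all libraries against 14549.9 for IGF2BP3. It fell from 23.0 to 18.6 CPM, with a log2 fold change of -0.30 (edgeR adjusted p 0.0118). The sources do not say whether strand was used in counting, and reads of the overlap cannot be assigned with certainty.

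HMGA1 (ENSG00000137309.21, chromosome 6, 34236873 to 34246231, plus strand), a chromatin protein abundant in dividing and transformed cells, had lower levels in most KO libraries but did not pass the test. It stood at 833, 719 and 725 CPM in SCR1 replicates 1, 3 and 4. The level was 780, 629 and 612 CPM with sgRNA_96 and 582, 592 and 714 CPM with sgRNA_97. In 5 of the 6 KO libraries it lay below every control, and sgRNA_96 replicate 1 exceeded all libraries but SCR1 replicate 1. The means were 759 ± 64.0 CPM (SD, n = 3) in SCR1 and 651.5 ± 78.4 CPM (SD, n = 6) in KO. The log2 fold change was -0.22 (SE 0.079, 95% confidence interval -0.39 to -0.054), and the adjusted p of 0.0583 in edgeR was above the threshold. Without sgRNA_96 replicate 1 the log2 fold change was -0.28 (edgeR adjusted p 0.00403), and the adjusted p was 0.0423 without sgRNA_97 replicate 4. Without SCR1 replicate 1 the log2 fold change was -0.15 with an adjusted p of 0.309. Pseudogenes of HMGA1 held at most 10 counts in a library.

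HMGA2 (ENSG00000149948.14, chromosome 12, 65824460 to 65966291, plus strand), the relative of HMGA1 best known as a fetal let-7 target, had 84 to 184 counts per library. SCR1 replicates 1, 3 and 4 stood at 6.25, 5.87 and 6.145 CPM, within a narrow range. The KO libraries spread on both sides of it, at 5.30, 6.28 and 6.84 CPM with sgRNA_96 and 7.88, 6.21 and 5.29 CPM with sgRNA_97. The log2 fold change was 0.046 (SE 0.14, edgeR adjusted p 0.855), and the 95% confidence interval from -0.25 to 0.34 left room for a change of either sign.

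ARID3A (ENSG00000116017.11, chromosome 19, 925781 to 975939, plus strand), a DNA-binding protein of the B lineage, stood at 26.7, 29.6 and 29.1 CPM in SCR1 replicates 1, 3 and 4. With sgRNA_96 it was at 29.6, 24.6 and 27.6 CPM and with sgRNA_97 at 30.4, 28.0 and 30.8 CPM. The groups overlapped, and the log2 fold change was 0.0025 (SE 0.075, 95% confidence interval -0.16 to 0.16, edgeR adjusted p 0.987). Of all genes tested, 1% had a smaller absolute change.

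Each guide was then compared with SCR1 on its own. Neither comparison called any of the 5 genes in edgeR, where 11.2% of all genes tested were called with sgRNA_96 and 15.1% with sgRNA_97. At an unadjusted p under 0.05, IGF2BP2 and IGF2BP3 were past the threshold with each guide, and HMGA1 with sgRNA_97, where 26.7% of all genes tested were past it with sgRNA_96 and 29.8% with sgRNA_97. DESeq2 called 1 of the 5 with sgRNA_96 and 0 with sgRNA_97, and its share over all genes is not given here for either guide. The guides share their 3 control libraries, so their values are not independent. With sgRNA_96, IGF2BP3 alone of the 5 genes had no overlap with the controls, and with sgRNA_97 this held for IGF2BP2, IGF2BP3 and HMGA1, where 29.6 and 34.3% of all genes tested had none.

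The values of the guides are given side by side. IGF2BP2 had a log2 fold change of 0.83 (SE 0.28, adjusted p 0.0686) with sgRNA_96 and 0.70 (SE 0.28, adjusted p 0.111) with sgRNA_97, both in edgeR. For IGF2BP3 it was 0.16 (SE 0.058, adjusted p 0.0818) and 0.15 (SE 0.059, adjusted p 0.0983), again in edgeR. For HMGA1 it was -0.17 (SE 0.092, adjusted p 0.249) and -0.27 (SE 0.092, adjusted p 0.0614). HMGA2 and ARID3A, at 0.013 and -0.062 with sgRNA_96 and 0.079 and 0.066 with sgRNA_97, were within 1 SE of 0.

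Compared directly, sgRNA_97 against sgRNA_96 had an adjusted p of 1 in edgeR for each of the 5 genes, and 3 of all 14436 genes (0.0208%) were called. The 95% confidence interval of the log2 difference was -0.14 to 0.11 for IGF2BP3 and -0.72 to 0.45 for IGF2BP2, so the guides could differ by more for IGF2BP2 than these libraries can show. For HMGA1 the interval was -0.29 to 0.10, for HMGA2 -0.29 to 0.43 and for ARID3A -0.055 to 0.31.

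**Figure D3:**
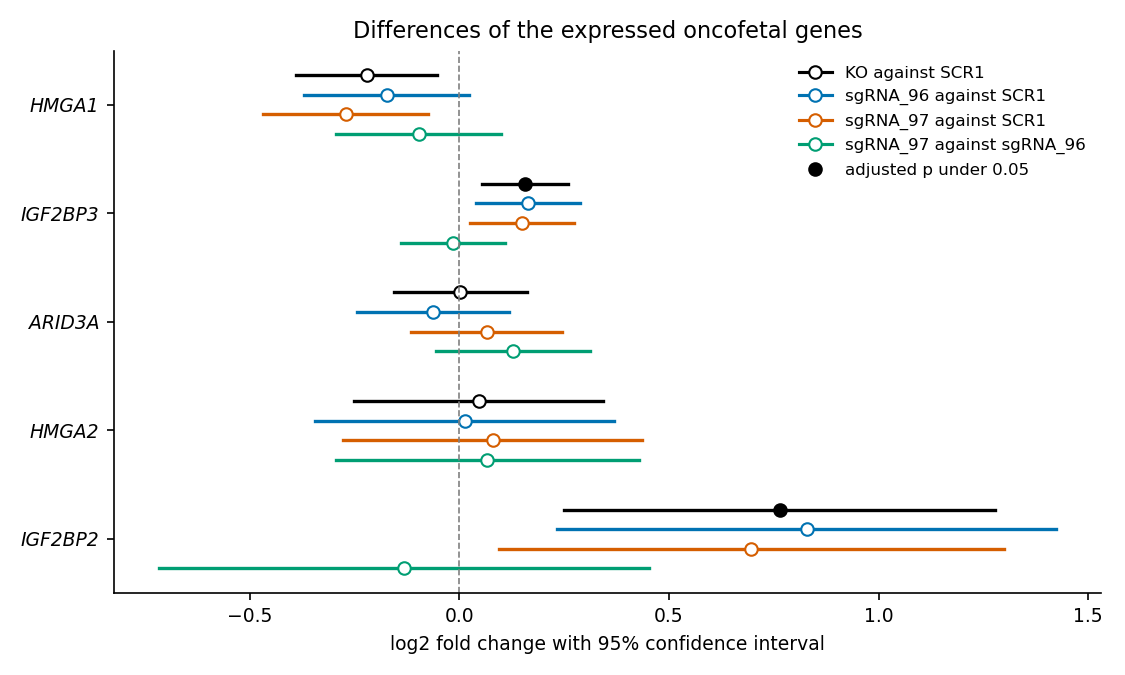
Log2 fold change with its 95% confidence interval (x axis) of the 5 expressed genes in 4 comparisons, with filled points where the adjusted p was under 0.05 in edgeR. Filled points are seen only for IGF2BP3 and IGF2BP2 in KO against SCR1, and the intervals of sgRNA_97 against sgRNA_96 all include 0.

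The deposited tables divide each gene's counts among transcripts, so the forms behind these levels can be given. HMGA1 was divided between HMGA1-201, with 65.5% of its counts, and HMGA1-202, with 26.4%. These encode proteins of 107 and 96 residues, the known HMGA1a and HMGA1b forms, which differ by a stretch of 33 coding bases or 11 residues on chromosome 6 (34240883 to 34240915). The share of HMGA1-201 lay between 63.8 and 68.3% in all 9 libraries.

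IGF2BP2 was far less even. IGF2BP2-201, a protein of 556 residues, held 63.3% of the counts and IGF2BP2-202, of 599 residues, 25.3%, but the share of IGF2BP2-202 ran from 4.8 to 40.7% among libraries. IGF2BP2-202 is the canonical transcript whose 3′ UTR was searched above, and that of IGF2BP2-201 was not searched. With so few counts the share of IGF2BP2-202 is a rough estimate.

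IGF2BP3 was mostly IGF2BP3-201, of 579 residues, with 88.4% of its counts, and the short IGF2BP3-218, of 198 residues, held 8.9%. HMGA2 was mostly HMGA2-204, the full protein of 109 residues, with 84.4%, and the retained intron transcript HMGA2-211 held 9.0%. ARID3A was almost only ARID3A-201, of 593 residues, with 98.2%. Shares of 9 transcripts were compared between KO and SCR1 in exact two-sided permutation tests, added after the data were seen. The p ranged from 0.167 to 0.905, with adjusted values of at least 0.729, where 6 against 3 libraries allow no p below 0.0119. The shares of HMGA1-202, the lowest of these p, were 25.0 ± 1.8% (SD, n = 3) in SCR1 and 27.1 ± 2.2% (SD, n = 6) in KO.

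**Figure D4:**
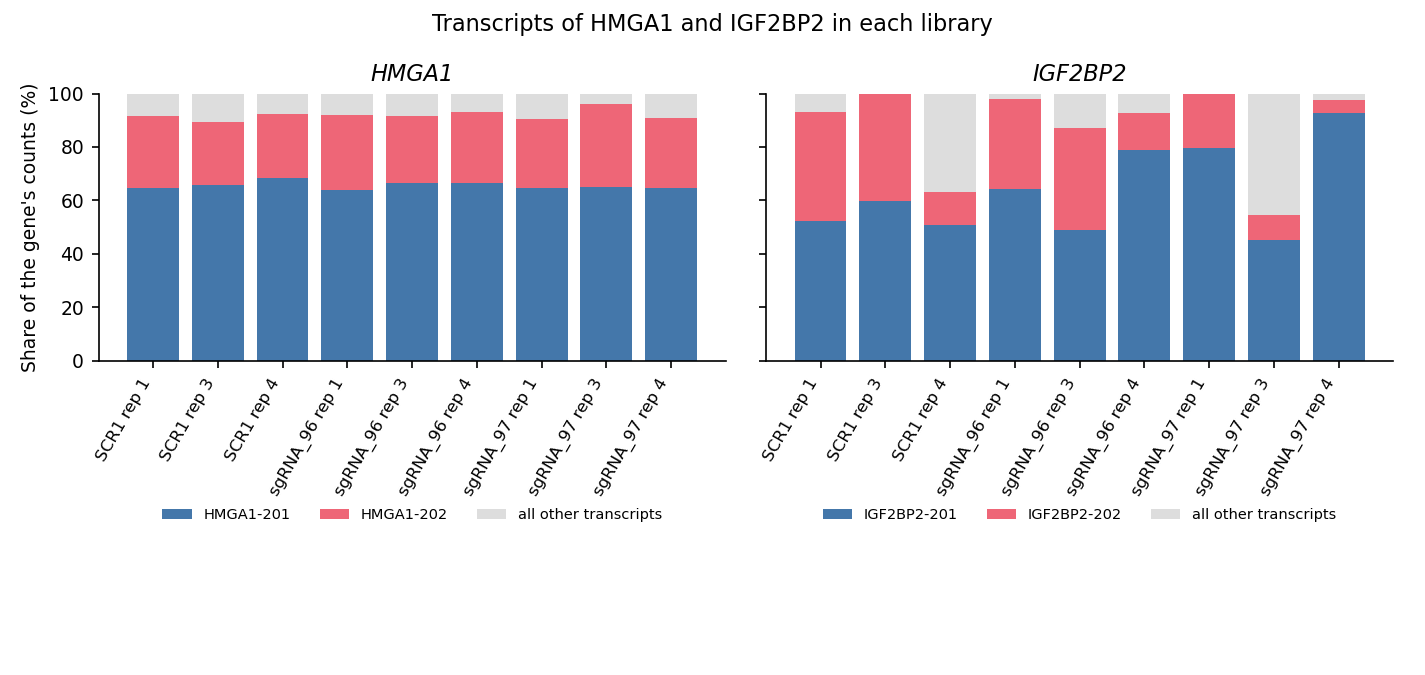
Share of the counts of HMGA1 (left) and IGF2BP2 (right) that the deposited table assigns to each transcript, in percent (y axis) for each library. HMGA1-201 holds 63.8 to 68.3% in every library, whereas the shares of IGF2BP2 vary widely at 28 to 87 counts per library.

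The relatives of these genes by protein family, HMGB, HMGN, cold shock and ARID3 genes, fell more often than they rose. Of 16 listed, 12 were tested, 6 were lower and 1 was higher, where 10.6% of all genes tested were called lower and 10.1% higher. The median log2 fold change was -0.13 against 0.0028 over all genes. HMGB3, a DNA-bending protein of blood progenitors, fell from a control mean of 116.5 ± 1.81 CPM (SD, n = 3) to a KO mean of 92.0 ± 3.28 CPM (SD, n = 6, edgeR adjusted p 6.56e-05). HMGN2, which binds nucleosomes, fell from 1119 ± 10.7 to 887 ± 31.2 CPM (adjusted p 1.55e-05). Both lay below every control in 6 of 6 KO libraries, where 20.3% of all genes tested had no overlap in either direction. Both were called under all 16 alternatives. HMGB1, HMGB2, YBX1 and CARHSP1 were also called lower, with log2 fold changes of -0.19, -0.16, -0.20 and -0.22. YBX3, a cold shock protein related to LIN28 by that domain, rose by 0.20 on the log2 scale (edgeR adjusted p 0.00143). HMGB1, HMGN2 and YBX1 have many processed copies in the genome, and the authors' counting could divide reads among them. Under the alternatives 4 to 6 genes were called lower and 0 or 1 higher.

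Of 17 genes that make or silence let-7, 16 were tested, 1 was higher and 2 were lower, where 10.1% of all genes tested were called higher and 10.6% lower. The median log2 fold change was -0.012. DICER1, the nuclease that cuts precursors of microRNAs, rose from a control mean of 110 ± 1.97 CPM (SD, n = 3) to a KO mean of 127 ± 4.92 CPM (SD, n = 6, edgeR adjusted p 0.00369). KHSRP, a splicing factor that promotes let-7 maturation, and HNRNPA1, which counters it, fell by 0.20 and 0.12 on the log2 scale, with adjusted p of 0.0309 and 0.0313. Each of the latter was called in at most 9 of 16 alternatives. TUT4 and TUT7, which add uridines to let-7 precursors that LIN28 holds, were present at 102 and 34.6 CPM in SCR1 and had log2 fold changes of 0.12 and 0.15 with adjusted p of 0.124 and 0.126. TRIM71, an RNA-binding partner of LIN28 in embryonic cells, had at most 2 counts.

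Of 28 further let-7 targets, 8 had under 3 counts in every library, 18 were tested, 2 were higher and 3 were lower, against 10.1 and 10.6% of all genes tested. The median log2 fold change was 0.028. HRAS, a small GTPase, fell from a control mean of 23.8 ± 1.96 CPM (SD, n = 3) to a KO mean of 17.1 ± 1.93 CPM (SD, n = 6, edgeR adjusted p 0.00154). CDC25A, a phosphatase that drives entry into S phase, fell from 92.8 ± 5.22 to 71.7 ± 2.03 CPM (adjusted p 6.34e-05), and CDC34, a ubiquitin-conjugating enzyme, had a log2 fold change of -0.27 (adjusted p 0.0110). DICER1, itself on the list, and the growth factor receptor gene IGF1R rose, IGF1R by 0.24 on the log2 scale (adjusted p 0.00479). MYC and CDK6, with log2 fold changes of 0.11 and 0.14, had adjusted p of 0.178 and 0.0522. The mature microRNAs were not measured, and none of the 12 let-7 and miR-98 hairpin genes had any count in these poly(A) libraries.

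Of 17 mRNAs known as clients of IGF2BP proteins, 15 were tested, 3 were higher and 4 were lower, against 10.1 and 10.6% of all genes tested, and the median log2 fold change was 0.063. ALDH1A1, a retinal dehydrogenase, rose from a control mean of 34.0 ± 0.561 CPM (SD, n = 3) to a KO mean of 50.9 ± 2.06 CPM (SD, n = 6, edgeR adjusted p 3.04e-06). TK1, which salvages thymidine for DNA synthesis, fell from 159 ± 10.4 to 114 ± 7.85 CPM (adjusted p 3.27e-05), and ACTB, cytoskeletal actin, from 5879 ± 282 to 4855 ± 322 CPM (adjusted p 0.000923). BTRC rose, and SRF and MYB fell, by 0.21, 0.23 and 0.16 on the log2 scale. IGF2, for which the family is named, had at most 5 counts in a library. IGF2BP proteins also read the m6A mark on mRNA, and 16 genes for the writers, erasers and readers of that mark were all tested. In KO against SCR1 none was called in edgeR, where 20.7% of all genes tested were, and the median log2 fold change was -0.011. At an unadjusted p under 0.05 there were 4 of the 16, against 33.5% of all genes tested. Among the alternatives of that comparison at most 2 were called in either direction. With sgRNA_97 alone 1 of the 16 was called, RBM15B (log2 fold change -0.28, edgeR adjusted p 0.0168), where 15.1% of all genes tested were.

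Globin genes, the classic readout of the fetal to adult switch, had few or no counts. Of 15 globins and regulators, 9 had under 3 counts in every library, HBB, HBG1 and HBG2 among them at 0, and 4 were tested. Of these, 1 was called higher and 2 lower, against 10.1 and 10.6% of all genes tested. BCL11A, the repressor of fetal globin that is also needed for B cell development, rose from a control mean of 57.05 ± 4.40 CPM (SD, n = 3) to a KO mean of 74.8 ± 4.04 CPM (SD, n = 6, edgeR adjusted p 0.000277). It lay above every control in 6 of 6 KO libraries, where 20.3% of all genes tested had no overlap in either direction. IKZF1, the lymphoid factor Ikaros, fell from 182.5 ± 4.72 to 161 ± 7.18 CPM (adjusted p 0.00903), as did MYB, a progenitor factor, from 381.5 ± 21.0 to 342 ± 12.3 CPM (adjusted p 0.0187). ZBTB7A, the other main repressor of fetal globin, had a log2 fold change of -0.065 with an adjusted p of 0.640. Some genes stand on more than 1 of these lists. Among the genes called higher, BCL11A, YBX3 and DICER1 were each called in 13 of 16 alternatives, and BTRC in 10. Among those called lower, MYB was called in 12 and HMGB2 in 11. Under the alternatives 0 to 3 of the let-7 targets were called higher and 2 to 4 lower. For the IGF2BP client RNAs it was 2 to 5 in each direction.

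**Figure D5:**
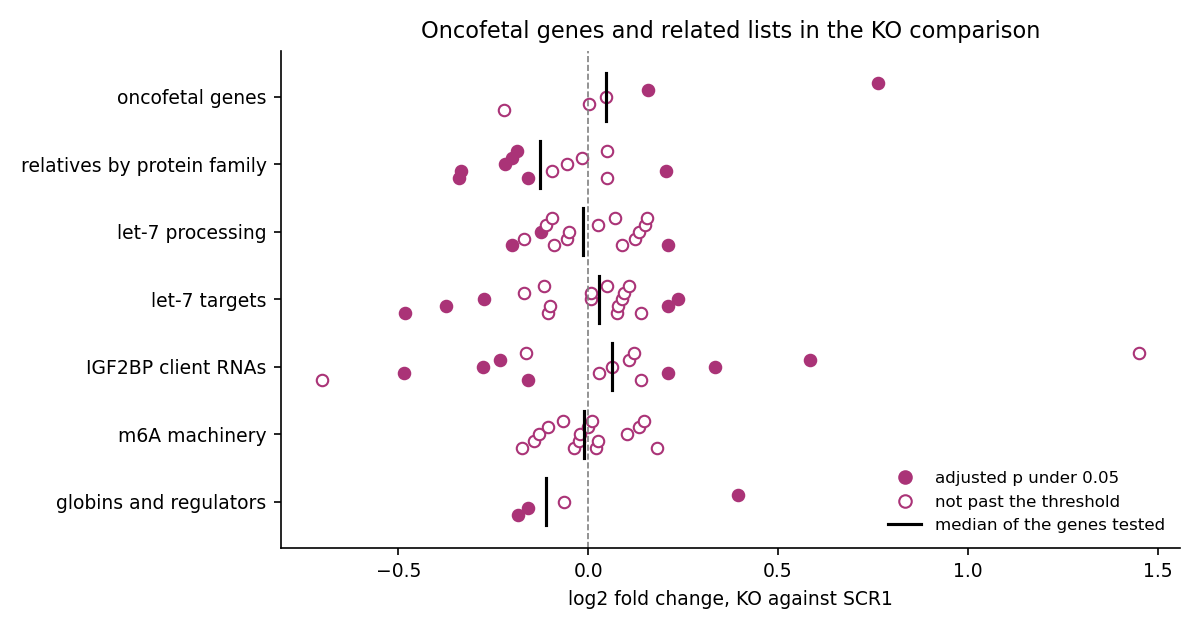
Log2 fold change in KO against SCR1 (x axis) of each tested gene of the oncofetal genes and 6 related lists, filled where the adjusted p was under 0.05 in edgeR, with a bar at the median of each list. The medians lie between -0.13 for the relatives by protein family and 0.063 for the IGF2BP client RNAs.

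The genes whose log2 CPM followed that of a called member most closely over the 9 libraries were listed among 12961 genes with a mean of at least 1 CPM. For IGF2BP2 these were LRP1 (Pearson r 0.970), SECISBP2L (0.938) and ZNF471 (0.936). For IGF2BP3 they were DCUN1D2 (0.972), KANTR (0.972) and MTA3 (0.967). The points share their libraries and the difference between groups, and the highest values were picked from many genes, so they are a description. IGF2BP2 and IGF2BP3 had an r of 0.579 with each other, and HMGA1 had an r of -0.698 with IGF2BP3 and -0.641 with HMGA2.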

How the data were processed

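RNA was measured in 9 bulk libraries of HAL-01 cells. Per the labels and the study's methods, the authors made poly(A)-selected TruSeq libraries, sequenced them in pairs, trimmed with TrimGalore, aligned with STAR to GRCh38 (hg38) and quantified with Salmon 1.10.1 in the nf-core workflow. They deposited estimated counts per transcript, without normalization, and TPM values, which the authors' Salmon run scaled for transcript length to 1000000 per library. The annotation release was not given in the sources used here, and all 252835 transcripts matched GENCODE 44. Salmon divides shared reads by likelihood, so genes with near-identical or overlapping copies are uncertain.

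Sums of these counts over each gene's transcripts were rounded. Genes were kept by filterByExpr with a minimum count of 10, scaled by TMM and tested by quasi-likelihood in edgeR 4.0.16 under R 4.3.3. P-values were adjusted over all 14436 genes by the Benjamini-Hochberg method, at a threshold of 0.05. All adjusted p-values are from this test unless another is named, and log2 fold changes come from the fit. The 6 KO libraries formed a single group in the main comparison, and the guides were compared in a fit of 3 groups. CPM uses the scaled library size. The common biological coefficient of variation was 0.0724. Alternatives were DESeq2 1.42.0, which the study used, its size factors, no filter, the replicate number as a block, a gene length offset, limma 3.58.1 on log2(TPM + 1) and log2(TPM + 0.1), and each library left out in turn. The steps were checked on simulated counts.

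The members and lists were chosen with earlier results of these data known. All 8 members are named. From each list, the called genes were named, the largest 4 by rule, and further genes after their values were seen. A called gene of the IGF2BP client list is not reported here by name. Within groups, replicate counts differed by 4.31 to 8.59 times the chi-square that sampling alone gives, so no library was a duplicate. Deviations of same-numbered libraries had correlations of -0.066 to 0.055, so no shift shared by same-numbered libraries was seen. These values do not say whether such libraries came from the same transduction.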

Additional observations from a re-analysis of the deposited data

How the results depend on the processing

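In KO against SCR1, IGF2BP2, IGF2BP3 and HMGA1 kept their sign under all 16 alternatives, and the calls did not all hold. IGF2BP2 was not called with the gene length offset (log2 fold change 0.79, adjusted p 0.116 in edgeR) or on log2(TPM + 1) and log2(TPM + 0.1) (0.43 and 0.71). IGF2BP3 was not called without the filter (0.15, adjusted p 0.0684 in edgeR) or on the TPM scales (0.21 and 0.22), and HMGA1 was called without the filter (-0.23, adjusted p 0.000163). ARID3A changed sign without the filter (-0.0073). With 1 library left out, the values ranged from 0.57 to 1.01 for IGF2BP2, 0.14 to 0.18 for IGF2BP3, -0.28 to -0.15 for HMGA1, -0.026 to 0.092 for HMGA2 and -0.047 to 0.044 for ARID3A.

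Of the 5 genes, 1 was called with the gene length offset and 0 on either TPM scale, and 0 to 3 with 1 library left out, with 0 without SCR1 replicate 1 or 4. All genes called numbered 1525 with the length offset, 1240 and 1246 on the TPM scales, and 1503 to 3547 with 1 library left out, the lowest without SCR1 replicate 1. For sgRNA_96 they numbered 661, 448 and 451, and 760 to 2027, and for sgRNA_97 923, 706 and 706, and 987 to 2501. Of the 5 genes, sgRNA_96 called 1 in DESeq2, 2 without the filter and 0 to 1 in the leave-outs. With sgRNA_97, 1 was called without the filter, 1 with the length offset and 0 to 1 in the leave-outs. All genes called in DESeq2 and without the filter are not given here for either guide. In KO against SCR1 they numbered 3253 and 3199, against 2984 in the main fit. For sgRNA_97 against sgRNA_96 all genes called were 8 in DESeq2, 106 without the filter, 1 with the replicate block, 1 with the length offset, 0 and 0 on the TPM scales and 1 to 5 in the leave-outs.

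Other signs turned only in values that were never called. For sgRNA_96 against SCR1, ARID3A was at 0.066 with the length offset and 0.067 and 0.075 on the TPM scales, and ranged from -0.12 to 0.010 in the leave-outs, where HMGA2 ranged from -0.070 to 0.10. For sgRNA_97 against SCR1, HMGA2 ranged from -0.084 to 0.20. For sgRNA_97 against sgRNA_96, IGF2BP3 was at 0.073 with the length offset and 0.063 and 0.064 on the TPM scales, and ARID3A at -0.015 and -0.017 on the latter. In its leave-outs IGF2BP3 ranged from -0.060 to 0.014, HMGA1 from -0.20 to 0.022, HMGA2 from -0.094 to 0.19 and IGF2BP2 from -0.30 to 0.077.

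The replicate block changed no call among the 5 genes in any comparison, with log2 fold changes of 0.78 (edgeR adjusted p 0.0304) for IGF2BP2 and 0.16 (0.0381) for IGF2BP3 in KO against SCR1. The cause of these differences was not tested. IGF2BP2 rested on 28 to 87 counts per library.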

Other observations

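The long RNAs from which some let-7 microRNAs are cut were looked at after the values were seen, since the hairpins themselves had no counts. MIRLET7A1HG, the host of a let-7 cluster, stood at 12.5 ± 0.892 CPM (SD, n = 3) in SCR1 and 13.5 ± 0.819 CPM (SD, n = 6) in KO, a log2 fold change of 0.11 (edgeR adjusted p 0.404). MIRLET7BHG, at 2.89 and 2.82 CPM, had a log2 fold change of -0.020 (adjusted p 0.967), and MIRLET7IHG, at 2.95 and 2.52 CPM, one of -0.23 (adjusted p 0.469). The level of a host RNA is not the level of mature let-7, which was not measured.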
